A study of Mus musculus with 10 samples.

Results

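The genes described here serve cysteine supply and the synthesis, reduction and breakdown of glutathione in pancreatic tumors, 9 genes in all out of 55359 in the deposited table. They are Slc7a11 for cystine import, Gclc, Gclm and Gss for glutathione synthesis, Gsr for glutathione reduction, Chac1 and Ggt1 for glutathione breakdown, and Cth and Cbs for the transsulfuration route to cysteine. They were found by mouse Ensembl identifier with the version number dropped, and each of the 9 symbols matched 1 row. RNA was sequenced from orthotopic tumors of KPC K8484 cells, a single murine pancreatic cancer line (its alleles include Trp53 R172H/+ and Pdx1-Cre) that also carried luciferase. The cells were injected into the pancreas of immunocompetent C57BL/6 mice (C57BL/6 J in the study's methods) at 10 weeks of age, which then drank regular water (CTRL, 5 tumors) or 30% dextrose water (D30, 5 tumors) for 14 days. The study's methods state that male and female mice were used in equal numbers, but no sex is given for the single tumors. The sample titles call the tumors PDX, while the source label gives the murine line. Tumors are named by their column in the table, N for CTRL and T for D30, since columns could not be matched to single animals.

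Glutathione is a tripeptide of glutamate, cysteine and glycine, and cysteine is usually the scarce part. The transporter encoded by Slc7a11 brings in cystine in exchange for glutamate, and transsulfuration makes cysteine from homocysteine by way of cystathionine. Glutamate-cysteine ligase, a catalytic subunit (Gclc) with a modifier subunit (Gclm), makes the first bond and limits the rate, and glutathione synthetase (Gss) adds glycine. Glutathione reductase (Gsr) returns oxidised glutathione to its reduced form. Several of these genes are known targets of the oxidative stress factor NRF2 (Gclc, Gclm, Slc7a11 and Gsr) or of the amino acid stress factor ATF4 (Slc7a11, Chac1 and Cth).

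The values are normalized counts, which are read counts scaled by a size factor for each tumor, and the unscaled reads recovered from them came to between 29192261 and 42122304 per tumor. The D30 tumor T4 held 841 reads of 4 Y-linked genes where the other tumors, all CTRL tumors among them, held 0. Whether these reads follow the sex of the mice was not tested. The D30 tumor T5 had the fewest genes with a read (20482, against 23446 or more in the others). The 5 erythroid markers summed to 187883 normalized counts in T5, against 4124 to 12386 in the other D30 tumors and 4842 to 7298 in CTRL tumors. Of 9 markers of ductal tumor epithelium, the keratins of simple epithelium stood high in every tumor (Krt18 at 56807 ± 11889 in CTRL and 107376 ± 30025 in D30, SD, n = 5), while Epcam was low (85.1 ± 66.7 and 16.1 ± 26.1, SD, n = 5). Sox9 (48.6 ± 18.1 and 95.3 ± 145) and Cldn4 (112 ± 49.0 and 296 ± 298, SD, n = 5) were also low. The summed level of these 9 markers was 224843 to 355380 in the CTRL group and 377701 to 500656 in the D30 group, without overlap. The keratins Krt8, Krt19, Krt18 and Krt7 were the largest parts of this sum. Of the 9 markers 8 had a positive log2 fold change and 1, Epcam, a negative one. For the 7 endothelial markers the summed level was 11458 to 18809 in the CTRL group and 5691 to 10327 in the D30 group, also without overlap. Cdh5 was the largest part of the endothelial sum (11945 ± 2931 in CTRL and 4437 ± 1367 in D30, SD, n = 5), and the other endothelial markers together overlapped between the groups. Of the 7 endothelial markers 6 had a negative log2 fold change and 1, Vwf, a positive one (1225 ± 337 and 1606 ± 562, SD, n = 5). None of the tested markers was at 0 in every tumor. The 12 acinar markers, of the normal pancreas around a tumor, summed to 31781 normalized counts in N2 and 69106 in N6, against 296 to 3501 in the other CTRL tumors and 173 to 6750 in D30 tumors. The acinar list had the lowest median log2 fold change of the 12 marker lists (-4.48), with no gene called. Of all 87 tested markers of 12 cell types, 8 were called by the test given below, all of them lower in D30 tumors. Over all genes tested 2.76% were called, 1.36% as lower in D30 tumors. The called markers were Ins1, Gcg, Ppy and Iapp of the islet list, Csf1r of the macrophage list, Cdh5 of the endothelial list, and Alb and Ttr of the hepatocyte list. No marker of the acinar, fibroblast, neutrophil, T cell, B cell, adipocyte, erythroid or epithelial list was called. The part of cell composition in the results below was not tested, and in bulk tumors fewer cells of a type cannot be told apart from less RNA per cell.

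Of the 9 genes, Gclc and Cbs fell in D30 tumors and the other 7 did not pass the test. All 9 were expressed above the filter, with between 61 and 21930 reads per tumor. A gene was called at an adjusted p under 0.05 from limma's moderated test on log2(normalized count + 1), with Benjamini-Hochberg adjustment over 24560 genes. On that background 2.76% of all genes tested were called, 1.36% as lower in D30 tumors. The groups did not overlap for 1 of the 9 genes, Gclc, where 6.19% of all genes had groups without overlap (3.32% lower and 2.87% higher in D30 tumors). At an unadjusted p under 0.05 stood 3 of the 9 genes and 17.3% of all genes. The median log2 fold change of the 9 genes was -0.02, against -0.06 over all genes tested. The members were chosen with earlier results of these tumors known, including the fall of Gclc, so that their counts are not independent evidence.

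**Figure D1:**
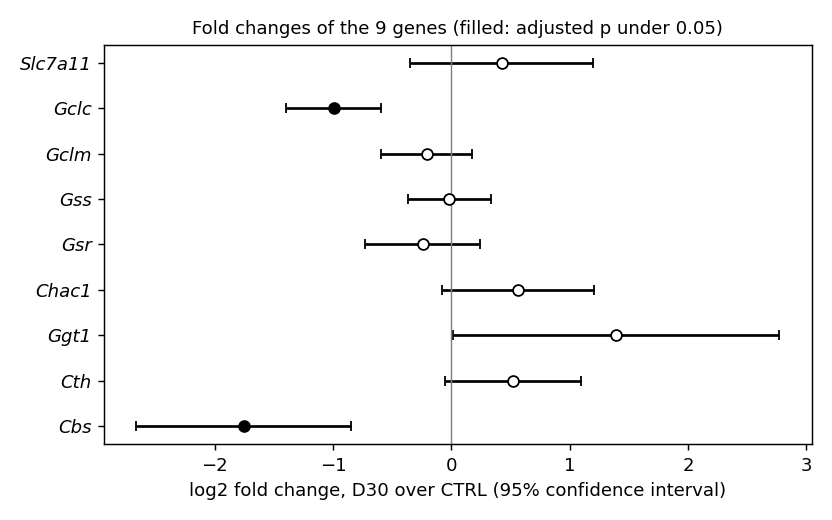
Log2 fold changes (D30 over CTRL) of the 9 genes with 95% confidence intervals from limma, 5 tumors per group. The intervals of Gclc (-1.40 to -0.60) and Cbs (-2.66 to -0.85) lie below 0 and these genes, drawn filled, passed the threshold, while the interval of Ggt1 (0.01 to 2.77) is the widest.

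Slc7a11 (chromosome 3, 49892526 to 50443614 in GRCm38) had 1371.8 normalized counts in N1, 1030.1 in N2, 793.0 in N4, 1353.6 in N5 and 1216.7 in N6. In D30 tumors it had 882.2 in T1, 2042.4 in T2, 3792.5 in T4, 1239.7 in T5 and 954.4 in T7. T2 and T4 stood above every CTRL tumor and the other 3 D30 tumors lay within the CTRL range. On the log2 scale D30 exceeded CTRL by 0.43 (95% confidence interval -0.35 to 1.20, limma adjusted p = 0.589). Without T4 it was 0.10, so that most of the difference of the means rested on that tumor. Slc3a2, which encodes the heavy chain that partners this transporter at the membrane, had 5493 ± 707 normalized counts in CTRL and 7456 ± 2730 in D30 tumors (SD, n = 5), and its adjusted p was 0.411 from limma.

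The stretch before the start of Slc7a11 is shown beside that of Chac1, since both genes are known ATF4 targets. Capitals mark the letters TGATGNAA or their reverse complement, a short form of the amino acid response element to which ATF4 binds. Both strands were searched over 250 bases before the RefSeq start (GRCm38.p6), and of 32851 such windows 3.45% held a match. Slc7a11 held 2 matches, at 66 and 47 bases before the start, and Chac1 held 1, at 193 bases before it. None of these matches overlapped the other motifs searched. The printed stretch of Slc7a11 is chr3:50443615-50443863 on the minus strand and that of Chac1 is chr2:119350992-119351228 on the plus strand, both ending before the annotated transcript.
Slc7a11: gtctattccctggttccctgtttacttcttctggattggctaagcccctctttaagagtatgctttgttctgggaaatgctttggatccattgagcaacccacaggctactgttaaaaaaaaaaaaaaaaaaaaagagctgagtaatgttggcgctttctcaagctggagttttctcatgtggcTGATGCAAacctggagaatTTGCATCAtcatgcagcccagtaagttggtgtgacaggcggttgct
Chac1: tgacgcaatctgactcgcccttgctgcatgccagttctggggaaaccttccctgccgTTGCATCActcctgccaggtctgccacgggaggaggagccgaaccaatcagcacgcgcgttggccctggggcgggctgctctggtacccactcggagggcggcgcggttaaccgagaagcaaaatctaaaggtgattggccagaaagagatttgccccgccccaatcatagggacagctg
Entries were found for 6 of the 9 genes (Slc7a11, Gclm, Gss, Chac1, Ggt1 and Cbs). The letters TGACNNNGC, the core of the antioxidant response element bound by NRF2, stood in 10.2% of all windows. Among the 6 genes they were found in the window of Gclm, as GCACCGTCA 134 bases before the start, and in 2 of 4 windows of Ggt1.

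Gclc fell in D30 tumors. Gclc (chromosome 9, 77754535 to 77794485 in GRCm38) had 13048.2 normalized counts in N1, 14988.9 in N2, 10847.7 in N4, 19414.0 in N5 and 13595.9 in N6. It had 6841.5 in T1, 6805.2 in T2, 7555.0 in T4, 7990.1 in T5 and 6314.7 in T7. Every D30 tumor stood below every CTRL tumor, and T4 and T5, which stood apart in other respects, were the highest of the D30 tumors. On the log2 scale Gclc changed by -0.996 (SE, the standard error, 0.185, limma adjusted p = 0.0127). The spread also differed, with a coefficient of variation of 22.2% in CTRL and 9.37% in D30 tumors, and N5 held 1.79 times the level of N4. Without N2 the adjusted p of Gclc was 0.0501, in a fit that called 1.14% of all genes. The call held in the other 9 fits with a tumor left out. Without both N2 and N6, the CTRL tumors high in acinar markers, the log2 fold change of Gclc was -0.98 and was not called (limma adjusted p = 0.181), in a fit of 3 CTRL against 5 D30 tumors that called 0.269% of all genes.

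Gclm, the modifier subunit, did not pass the test. Gclm (chromosome 3, 122245557 to 122270732 in GRCm38) had 3094.0 normalized counts in N1, 2660.2 in N2, 2895.3 in N4, 3025.9 in N5 and 2840.7 in N6. It had 2447.1 in T1, 2184.4 in T2, 3499.9 in T4, 2632.8 in T5 and 2003.7 in T7. The CTRL tumors lay close together and 4 D30 tumors lay below all of them, while T4 lay above all of them. The difference on the log2 scale was -0.21 (95% confidence interval -0.60 to 0.18, limma adjusted p = 0.594), and it was -0.33 without T4 (adjusted p = 0.165). Exons of Gclm overlap the annotated genes Gm6061 on the same strand and Gm17494 on the other, so that some of its reads are uncertain.

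Gss, the enzyme of the last step of synthesis, had nearly equal means (3467 ± 165.1 and 3449 ± 512.4 normalized counts, SD, n = 5). Gss (chromosome 2, 155563181 to 155592810 in GRCm38) had 3251.7 to 3664.7 normalized counts in CTRL tumors, with a median of 3438.4. In D30 tumors it had 3948.2 in T1, 3528.0 in T2, 3418.9 in T4, 2607.6 in T5 and 3742.1 in T7, so that T5 stood below and T1 and T7 above the CTRL range. Its log2 fold change was -0.02 (95% confidence interval -0.37 to 0.33, limma adjusted p = 0.966). Exons of Gss overlap Acss2, Gssos1 and Gssos2 on the other strand, and it is not stated whether reads were counted by strand.

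**Figure D2:**
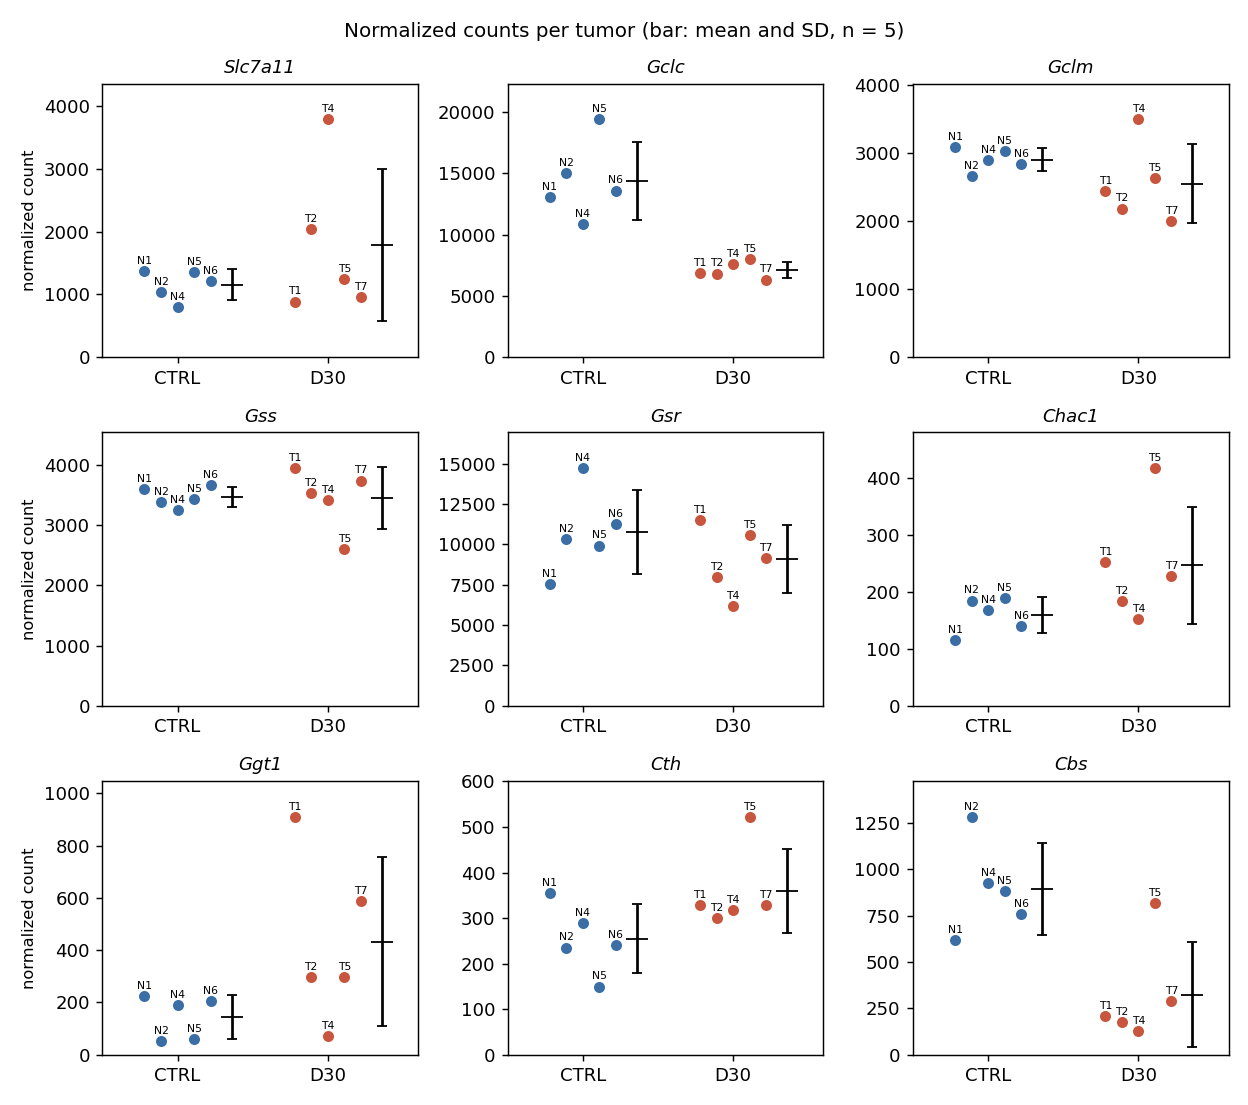
Normalized counts of the 9 genes in each tumor, 1 panel per gene with the axis starting at 0, CTRL tumors in blue and D30 tumors in red. The bar beside each group gives the mean and SD (n = 5). The groups are apart for Gclc, and for Cbs the D30 tumor T5 (819.6) sits among the CTRL tumors while the other D30 tumors have at most 290.8.

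Gsr (chromosome 8, 33652523 to 33698163 in GRCm38) had 7534.5 normalized counts in N1, 10324.2 in N2, 14721.6 in N4, 9925.7 in N5 and 11271.2 in N6. It had 11520.8 in T1, 7979.3 in T2, 6187.9 in T4, 10559.9 in T5 and 9159.9 in T7. Only T4 lay outside the CTRL range, below it, although T4 was the highest of all tumors for Slc7a11 and Gclm. For Gsr the log2 fold change was -0.24 (95% confidence interval -0.73 to 0.24, limma adjusted p = 0.628). N4 was the CTRL tumor with the highest Gsr and the lowest Gclc.

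Chac1 encodes a gamma-glutamylcyclotransferase that cleaves glutathione in the cytosol. Chac1 (chromosome 2, 119351229 to 119354381 in GRCm38) had 114.7 normalized counts in N1, 184.3 in N2, 167.2 in N4, 189.4 in N5 and 139.5 in N6. It had 251.9 in T1, 183.3 in T2, 151.5 in T4, 416.7 in T5 and 226.9 in T7. T1, T5 and T7 stood above every CTRL tumor, and T2 and T4, the tumors with the most Slc7a11, did not. For Chac1 the log2 fold change was 0.56 (95% confidence interval -0.08 to 1.20, limma adjusted p = 0.357), and 0.35 without T5.
Ggt1 encodes gamma-glutamyltransferase, which breaks down glutathione outside the cell. Ggt1 (chromosome 10, 75561604 to 75586200 in GRCm38) had 224.1 normalized counts in N1, 51.3 in N2, 189.1 in N4, 58.4 in N5 and 205.4 in N6. It had 909.9 in T1, 297.8 in T2, 70.6 in T4, 296.5 in T5 and 588.0 in T7. Of the D30 tumors 4 stood above every CTRL tumor, T4 stood near the lowest of them, and N2 and N5 lay well below the other CTRL tumors. Ggt1 had a log2 fold change of 1.39 (SE 0.640, limma adjusted p = 0.285, unadjusted p = 0.0485). Without T4 the D30 tumors had 523 ± 292 normalized counts (SD, n = 4) and the log2 fold change of Ggt1 was 1.93 (limma adjusted p = 0.0358). In that fit 6.43% of all genes were called.

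Of the enzymes of transsulfuration Cbs fell, and Cth did not pass the test. Cbs encodes cystathionine beta-synthase, which joins homocysteine to serine, and Cth encodes the lyase that then releases cysteine. Cbs (chromosome 17, 31608894 to 31637238 in GRCm38) had 618.6 normalized counts in N1, 1283.1 in N2, 924.6 in N4, 882.6 in N5 and 758.1 in N6. It had 206.7 in T1, 176.4 in T2, 126.1 in T4, 819.6 in T5 and 290.8 in T7. In 4 D30 tumors the level was below that of every CTRL tumor, and T5 lay within the CTRL range. This gave a log2 fold change of -1.76 (SE 0.420, limma adjusted p = 0.0425). Without T5 the D30 tumors had 200 ± 69.1 normalized counts of Cbs (SD, n = 4), the groups did not overlap, and the log2 fold change was -2.18 (limma adjusted p = 0.00249), in a fit that called 3.54% of all genes. The call of Cbs was not firm. It was lost with 1 of the 8 tumors N1, N2, N4, N5, N6, T1, T2 or T7 left out. In these fits the limma adjusted p values went up to 0.135 (without N2), at log2 fold changes between -1.88 and -1.62. The same fits called 1.14% (without N2) to 2.39% (without T1) of all genes. Cbs stood at an unadjusted p under 0.05 in each of them. edgeR's quasi-likelihood test on the recovered reads gave an adjusted p of 0.101 for Cbs, with 4.13% of the genes it tested called, and DESeq2 gave 0.0215, with 8.17% called. Markers of other tissues with lower sums in D30 tumors included those of hepatocytes and of islets. The hepatocyte markers summed to 1074 to 3560 normalized counts in CTRL and 468 to 1228 in D30 tumors (762 in T5). Nearly all of that sum was 1 gene, Ttr (2235 ± 895 and 756 ± 272, SD, n = 5). Alb was low (35.0 ± 17.7 and 0.229 ± 0.512, SD, n = 5) and Apoa1 had nearly equal means (26.8 and 27.2). The islet markers summed to 23.0 to 1503 in CTRL and 4.58 to 96.2 in D30 tumors. N2, with the highest Cbs, was also high in acinar markers, as given above, while N6, with more of them, had the second lowest Cbs of the CTRL tumors. Without both N2 and N6 the log2 fold change of Cbs was -1.63 and was not called (limma adjusted p = 0.324). The part of acinar, hepatocyte and islet tissue in the fall of Cbs was not tested.
Cth (chromosome 3, 157894248 to 157925077 in GRCm38) had 355.6 normalized counts in N1, 234.9 in N2, 289.6 in N4, 149.6 in N5 and 241.3 in N6. It had 328.0 in T1, 300.1 in T2, 316.9 in T4, 522.0 in T5 and 328.1 in T7. T5 stood above all other tumors, and the other 4 D30 tumors lay close together and under N1. For Cth the log2 fold change was 0.52 (95% confidence interval -0.06 to 1.10, limma adjusted p = 0.343).
The stretch before the start of Cbs is shown because Cbs had the largest fall of the 9 genes. It is chr17:31637239-31637455 on the minus strand, with the letters CACGTG, an E-box, in capitals 229 bases before the RefSeq start. A match to CACGTG stood in 6.02% of all windows. No match to TGATGNAA or TGACNNNGC was found in the Cbs window.
Cbs: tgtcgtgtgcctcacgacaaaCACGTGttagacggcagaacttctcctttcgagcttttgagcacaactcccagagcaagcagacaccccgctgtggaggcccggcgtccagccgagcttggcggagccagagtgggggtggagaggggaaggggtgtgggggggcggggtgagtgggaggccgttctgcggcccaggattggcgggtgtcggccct

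**Figure D3:**
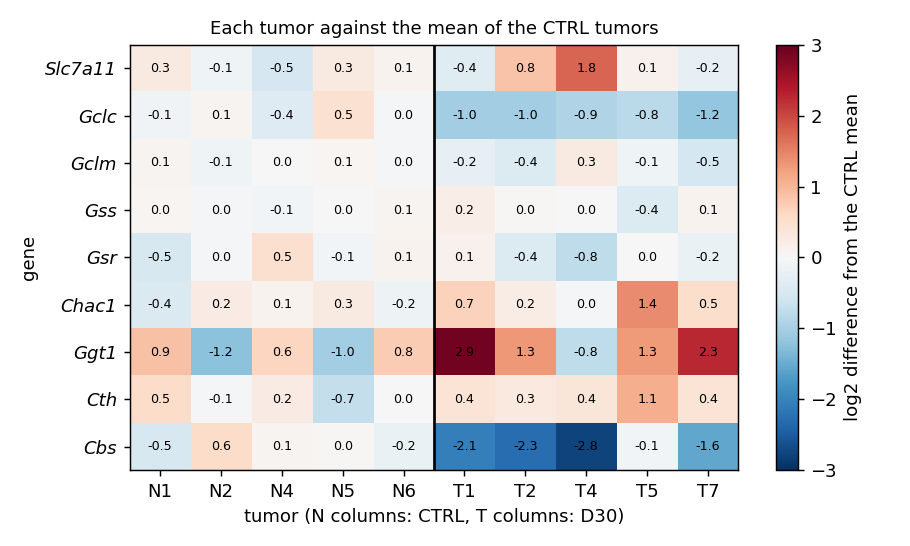
Log2 difference of each tumor from the mean of the CTRL tumors of log2(normalized count + 1), with genes as rows and tumors as columns, and the CTRL tumors left of the black line. Gclc is below the CTRL mean in all 5 D30 tumors, Cbs differs by -2.77 to -1.57 in 4 of them, and T4 and T5 differ from the other D30 tumors in several rows.

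T5 was the highest D30 tumor for 4 of the 9 genes (Gclc, Chac1, Cth and Cbs) and the lowest for Gss. T4 was the lowest D30 tumor for 4 genes (Gsr, Chac1, Ggt1 and Cbs) and the highest for Slc7a11 and Gclm. In T5 the erythroid markers and in T4 the Y-linked reads also stood apart, as given above, and their part in these values was not tested.

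Per kilobase of annotated exon, Gsr and Gclc were the most abundant of the 9 transcripts in CTRL tumors. Gsr stood at 3910 ± 948 and Gclc at 3820 ± 846 normalized counts per kilobase (SD, n = 5), and the order of these neighbours differed between CTRL tumors. Gss followed at 586 ± 27.9 and Gclm at 461 ± 26.9, each apart from the next in every tumor of the group. Cbs, Chac1, Cth, Slc7a11 and Ggt1 ranged from 119 ± 33.2 down to 42.7 ± 24.6 and each neighbour in this order overlapped the next. In D30 tumors Gclc stood at 1890 ± 177 normalized counts per kilobase, below Gsr (3300 ± 764) in every tumor. Cbs changed its place most, from place 5 to the last place at 43.3 ± 37.9, although it overlapped Ggt1 (127 ± 95) next above it. All annotated exons entered the lengths, which for Slc7a11 came to 13.92 kilobases and lower its value on this scale.

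Ratios of 2 genes within a tumor do not depend on the size factor, and 8 of them were compared. The ratio of Gclc to Gclm, the catalytic to the modifier subunit, was 4.22 in N1, 5.63 in N2, 3.75 in N4, 6.41 in N5 and 4.78 in N6. It was 2.80 in T1, 3.11 in T2, 2.16 in T4, 3.03 in T5 and 3.15 in T7, so that every D30 tumor lay below every CTRL tumor. On the log2 scale the Gclc to Gclm ratio differed by -0.79 (SE 0.17, two-sided exact permutation test, p = 0.00794, which is the lowest value possible with 5 tumors in each group, adjusted p = 0.0127 over 8 ratios). The ratio of Gclc to Gss differed by -0.98 (SE 0.21), that of Slc7a11 to Gclc by 1.42 (SE 0.39) and that of Chac1 to Gclc by 1.56 (SE 0.27). Each of these ratios also reached the smallest p of the exact permutation test, and all of them contain the fall of Gclc. Slc7a11 to Gclc was 0.0688 to 0.105 in the CTRL group and 0.129 to 0.502 in the D30 group, with T4 the highest. Gsr to Gclc differed by 0.75 and did not pass (adjusted p = 0.0741, exact permutation test). N4, with a ratio of 1.36, stood among the D30 tumors, T4, with 0.819, stood among the CTRL tumors, and the ratio passed without N4 (adjusted p = 0.0423, exact permutation test) and not without T4 (adjusted p = 0.0635). 
The ratio of Cth to Cbs does not contain Gclc, but it contains the fall of Cbs, whose call was not firm. This ratio was 0.576 in N1, 0.184 in N2, 0.314 in N4, 0.170 in N5 and 0.319 in N6, and 1.58 in T1, 1.70 in T2, 2.50 in T4, 0.637 in T5 and 1.13 in T7. The Cth to Cbs ratio was higher in every D30 tumor than in any CTRL tumor, T5 only just, and differed by 2.28 on the log2 scale (SE 0.46, exact permutation test, p = 0.00794, adjusted p = 0.0127). Cbs exceeded Cth in counts in every CTRL tumor and in T5 only among the D30 tumors. Ggt1 to Chac1 (difference 0.83, standard error 0.80, adjusted p = 0.372) and Slc7a11 to Chac1 (difference -0.14, standard error 0.63, adjusted p = 0.825) overlapped between the groups by the same exact permutation test. Slc7a11 to Chac1 reached from 2.97 in T5 to 24.9 in T4.

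**Figure D4:**
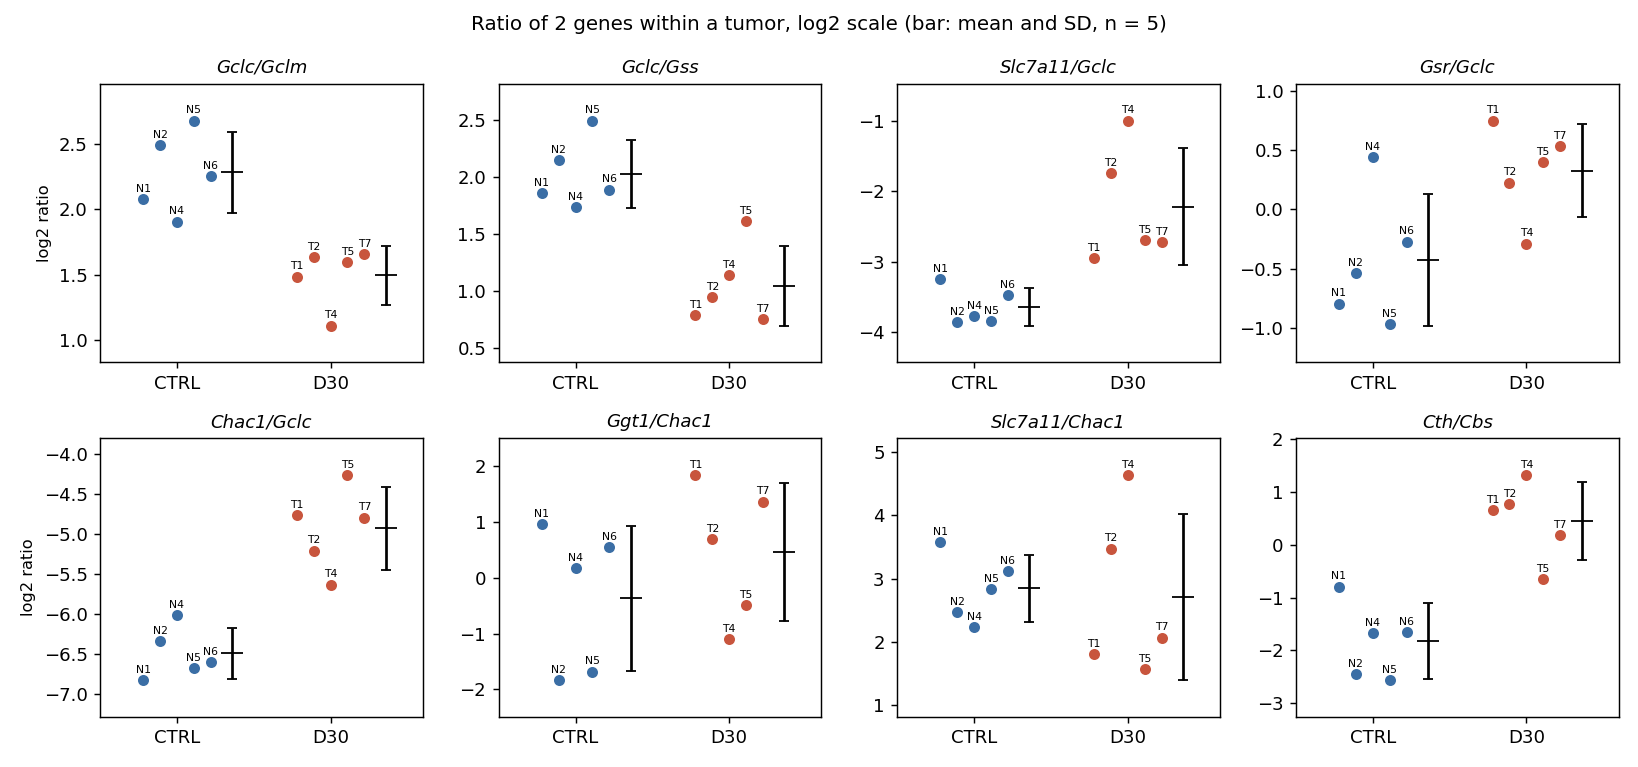
Ratios of 2 genes within each tumor on a log2 axis, 1 panel per ratio, CTRL tumors in blue and D30 tumors in red, with the mean and SD (n = 5) beside each group. The groups are apart for Gclc/Gclm, Gclc/Gss, Slc7a11/Gclc, Chac1/Gclc and Cth/Cbs, and T5 is the D30 tumor nearest to the CTRL tumors for Cth/Cbs.

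The genes with a profile most like that of Gclc over the 10 tumors were sought among 12214 genes whose mean reached 100 normalized counts. Likeness was the root mean square difference of log2(normalized count + 1) once each gene was centred on its own mean. Cd44, the hyaluronan receptor at the cell surface, was nearest at 0.126, followed by Zbtb38 (0.153), Fam210b (0.157), Ttl (0.160) and Tpst2 (0.185). Cd44 had 21452 ± 4963 normalized counts in CTRL and 10073 ± 1925 in D30 tumors (SD, n = 5). All 5 genes were highest in N5 among the CTRL tumors, as was Gclc, and their log2 fold changes ran from -1.12 for Fam210b to -0.75 for Tpst2. Both traits follow from the choice of these genes by likeness over the same tumors and are not separate evidence. Gclm was the closest of the other 8 glutathione and cysteine genes, at 0.462 and place 1039.

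Other genes of the same chemistry, its regulators and other targets of NRF2 and ATF4 were compared as 9 lists with 99 tested genes. Of these 9 were called, 8 higher and 1 lower. That is 9.09%, against 2.76% of all genes tested (1.40% higher and 1.36% lower). Of the 9 calls, 6 were other ATF4 targets and 1 was a regulator (Mafk). Only Fmo1 and Abcc3 came from the lists of the chemistry itself, so that 9.09% is not the share of those lists. The median log2 fold change over all 9 lists was 0.23, and 0.00 with tumors scaled by library size alone, which moved the median of all genes to -0.27. Without N2, N5 or N6 the count of calls over the 9 lists was 5 and without T4 it was 16. Without both N2 and N6 limma called 0 of them, with 18 at an unadjusted p under 0.05.
The genes that bring in cystine, cysteine and glutamate (10 tested) gave no call, with 4 positive and 6 negative log2 fold changes and a median of -0.12. Slc7a9, the light chain of another cystine transporter, had the smallest p of that list, with 115 to 288 normalized counts in CTRL and 332 to 908 in D30 tumors (log2 fold change 1.27, limma adjusted p = 0.0513). None of the 8 genes of glutamate supply and none of the 10 of the methionine cycle was called, with medians of 0.16 and -0.30. Gpt, an alanine aminotransferase, and Ahcyl1 had the smallest p values there (limma adjusted p = 0.109 and 0.215).
Among 10 genes of cysteine and sulfide use, Fmo1, a flavin monooxygenase, fell from 37.4 ± 12.4 to 2.25 ± 3.34 normalized counts (SD, n = 5, limma adjusted p = 0.00496), and the median of the list was 0.04. At these counts the D30 tumors had 0 to 8.02 normalized counts. The 12 other genes of glutathione breakdown and the gamma-glutamyl cycle gave no call, with a median of 0.04. Dpep1, a dipeptidase that follows Ggt1 in the breakdown outside the cell, had the smallest p of that list (70.5 ± 39.2 and 19.2 ± 16.2 normalized counts, SD, n = 5, limma adjusted p = 0.198).

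Of 9 genes of glutathione export and mitochondrial import, Abcc3 rose. This efflux pump for organic anions and conjugates had 694 normalized counts in N1, 492 in N2, 849 in N4, 749 in N5 and 760 in N6. It had 2955 in T1, 5640 in T2, 1216 in T4, 3312 in T5 and 3662 in T7. The groups did not overlap, T4 was the lowest of the D30 tumors, and the log2 fold change of Abcc3 was 2.11 (SE 0.335, limma adjusted p = 0.00581). The median of the list was 0.04.
Of 11 transcriptional and RNA regulators, Mafk rose, a small Maf protein that pairs with NRF2 or with its competitor Bach1 on DNA. Mafk had 1184 to 1540 normalized counts in CTRL tumors and 2464 to 4648 in those of the D30 group, which came to 1.14 on the log2 scale (SE 0.197, limma adjusted p = 0.00863). Nfe2l2, which encodes NRF2, had 4727 ± 218 in CTRL and 4075 ± 1131 in D30 tumors (SD, n = 5, limma adjusted p = 0.552). Elavl1, which encodes the RNA-binding protein HuR, had 3376 ± 213 and 3054 ± 409 (SD, n = 5, limma adjusted p = 0.671). Of 14 other NRF2 targets none was called, with 12 positive and 2 negative log2 fold changes and a median of 0.28 (11 positive and a median of 0.06 with library-size scaling). Ftl1, the ferritin light chain, had the smallest p of that list (limma adjusted p = 0.185). The negative values were those of Srxn1 (-0.33) and Nqo1 (-0.15).

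The 15 other ATF4 targets had the highest median of the 9 lists, 1.02, and all 15 had a positive log2 fold change, 14 without N5, T4 or T5. Of these 6 rose: Trib3, Nupr1, Ddit4, Atf5, Mthfd2 and Asns. Trib3, a pseudokinase of the stress response, had 119 to 154 normalized counts in CTRL tumors and 408 in T1, 408 in T2, 570 in T4, 1351 in T5 and 550 in T7, a log2 fold change of 2.08 (SE 0.311, limma adjusted p = 0.00431). Asns, asparagine synthetase, had 1736 to 2629 and 3223 to 4827 normalized counts, a log2 fold change of 0.83 (limma adjusted p = 0.0243). Atf4 itself had 4745 to 7011 normalized counts in CTRL and 7212 to 18944 in D30 tumors, without overlap and without a call (limma adjusted p = 0.109). T5 was the highest tumor for Atf4 and for each of the 6 called genes. The count of calls in the ATF4 list was 2 without N2, N5 or N6, 3 without N1 or T7, and 10 with DESeq2 on the recovered reads. With library-size scaling 14 of the 15 were positive and 3 were called.
Slc7a11, Chac1 and Cth, the ATF4 targets among the 9 genes, had log2 fold changes of 0.43, 0.56 and 0.52, below the median of the list, and none was called. Of these, Chac1 and Cth were highest in T5, as Atf4 was, while Slc7a11 was highest in T4. Whether these 3 genes differed from the list was not tested.

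**Figure D5:**
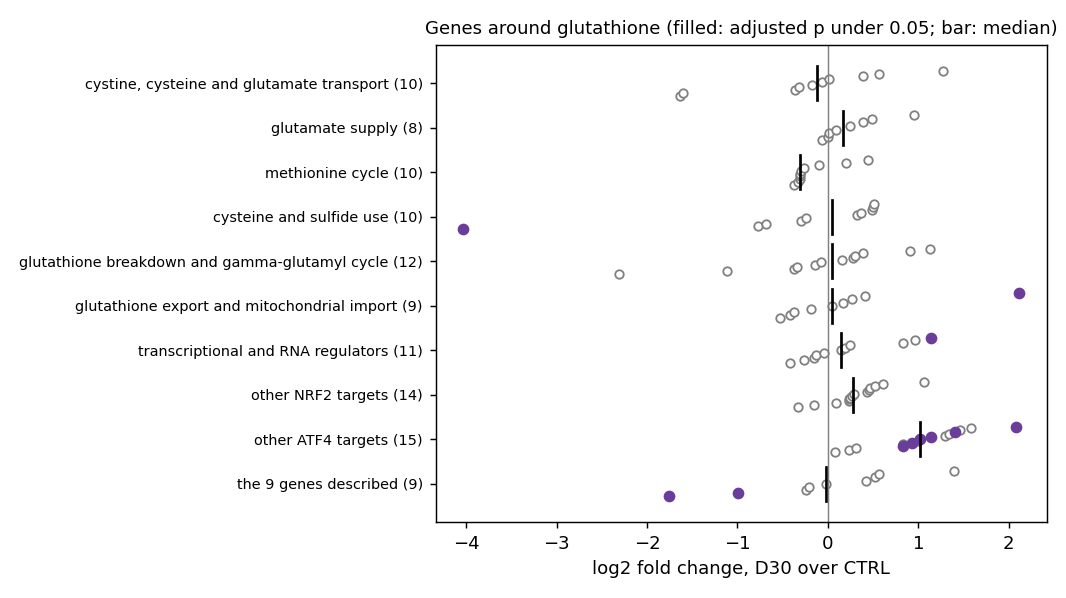
Log2 fold changes (D30 over CTRL) of the tested genes of each list, the number in brackets giving how many, with called genes filled and the median as a black bar. The ATF4 targets lie to the right of 0 with a median of 1.02, the other lists have medians between -0.30 and 0.28, and Fmo1 is the point far to the left.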

How the data were processed

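RNA from 10 tumors was sequenced as strand-specific pairs. Per the labels and methods, the authors trimmed reads with Trim Galore and aligned them with STAR 2.7.0e, with GRCm39 in the submitters' processing notes and hg38 in the methods, and used DESeq2. RSEM is named among the study's software with no role given, and the strand setting is not given in the sources used here. If RSEM made the counts, the recovered reads are estimates rounded to whole numbers. The deposited values are a normalized signal per gene and tumor in the form of DESeq2's normalized counts. All values (100.0%, within 0.05 reads) were whole multiples of 1 step per tumor, from which reads were recovered.

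Identifiers were matched to GENCODE M21 (GRCm38), which named 94.1% of them, and positions are those of M21. Values were tested with limma 3.58.1 (R 4.3.3) with a mean-variance trend on log2(normalized count + 1), for genes with a mean of at least 1. Fold changes on this scale understate those of low genes. As alternatives the recovered reads were tested with edgeR 4.0.16, which called 707 genes, and DESeq2 1.42.0, which called 1833. Within-tumor ratios were tested by exact two-sided permutation (SciPy 1.17.1). The members, the lists and the ratios were chosen with earlier results of these data known. Genes are named if they are members, if a list gene was called or had the smallest p of its list, or if they were among the 5 genes most like Gclc. Slc3a2, Atf4, Nfe2l2, Elavl1, Srxn1, Nqo1 and the single markers were chosen after their values were seen. Replicates are separate samples by the labels, and p-values measure the spread between these tumors. Promoter sequences are RefSeq's (GRCm38.p6).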

Additional observations from a re-analysis of the deposited data

Results flagged for a closer look

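Of 34 groups of 5 tumors examined (9 genes and 8 ratios in each group), 2 held a tumor far from the others by Dixon's test, and chance flags about 1 group in 20. Both were the D30 tumor T5. It had 522.0 normalized counts of Cth where the other D30 tumors had 300.1 to 328.1. It had 819.6 normalized counts of Cbs where the other D30 tumors had 126.1 to 290.8.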

How the results depend on the processing

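The log2 fold change of Gclc kept its direction and its call under all 9 other settings (-1.22 to -0.95), and with a tumor left out it ran from -1.09 to -0.88 and lost the call without N2. Cbs was not called with no filter (-1.76, adjusted p = 0.0509) or with edgeR (-1.45), and leaving out a tumor gave -2.18 to -1.50, with the call held only without T4 or T5. The number of the 9 genes called was 1 with no filter, 1 with edgeR, and 0 (without N2, with 2 at an unadjusted p under 0.05) to 3 (without T4, where Ggt1 joined) with a tumor left out. Ggt1 ran from 1.02 to 1.93 with a tumor left out. Gss changed sign with upper-quartile scaling (0.03) and edgeR (0.00), and ran from -0.07 to 0.08 with a tumor left out, with 0.00 without N6 and positive without T5. The Gsr to Gclc ratio ran from 0.62 to 0.97 and passed without N4, and the Slc7a11 to Chac1 ratio ran from -0.62 to 0.15. The count over the 9 lists was 19 with DESeq2 and 5 to 16 with a tumor left out. Over all genes the count was 1833 with DESeq2 against 678, 279 without N2 and 1573 without T4, and with library-size scaling 240 of 864 were higher against 344 of 678. Without both N2 and N6, a choice made after seeing the data, limma called 66 genes, and none of the 9 genes (2 at an unadjusted p under 0.05, Gclc at -0.98 and Cbs at -1.63) and 0 of the 99 list genes (18 at an unadjusted p under 0.05). The ratios that had passed then had an adjusted p of 0.0571 by the exact permutation test, with differences of -0.72 (Gclc to Gclm), -0.98 (Gclc to Gss), 1.40 (Slc7a11 to Gclc), 1.57 (Chac1 to Gclc) and 2.13 (Cth to Cbs). In each of these ratios the groups stayed apart, so that its unadjusted p was the smallest that 3 CTRL against 5 D30 tumors allow. With so few tumors this test cannot show whether these differences were lost. The cause of these changes was not tested. No paired analysis was possible because the columns could not be matched to the replicate numbers of the labels. With 1 tumor left out the smallest exact p is 0.0159. Fewest reads of a gene in a tumor were 61 (Ggt1), where counting error adds to the spread.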
